A study of Mus musculus with 24 samples.

Results

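The proteasome genes described here are the 50 rows of the polyA RNA table whose symbol begins with Psma to Psmg followed by a digit, out of 23998 rows. They were sorted by role into 8 core alpha and 7 core beta subunits, 4 immunoproteasome and thymus catalytic subunits, 6 ATPase and 11 non-ATPase subunits of the regulatory particle, 5 activators and inhibitors, 7 assembly chaperones and 2 further rows. Psmc3ip, 1 of those 2 rows, codes for a partner of a meiotic recombinase and not for a subunit, although its symbol matches. The other, Psme2b, is a near-identical copy of Psme2, so the division of reads between those 2 rows is uncertain. Tests covered 49 of the 50 rows, those with a mean level of at least 1 FPKM, while Psmb11, the thymus-specific catalytic subunit, was listed at 0 in all 13 libraries.

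The proteasome is the barrel-shaped protease that degrades ubiquitin-tagged proteins. Its core particle is built of alpha and beta rings, of which Psmb5, Psmb6 and Psmb7 carry the catalytic sites, and a regulatory particle of ATPases and non-ATPases recognises, unfolds and feeds the substrate. Interferon induces the alternative catalytic subunits Psmb8, Psmb9 and Psmb10 and the activator pair Psme1 and Psme2, which favour the making of peptides for MHC class I. In the heart, proteasomes turn over sarcomere proteins and clear misfolded ones.

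Heart RNA came from 13 CD1 mice that all carried a human MYL2 transgene, coding for the regulatory light chain of myosin. The groups were 4 mutant hearts labelled as given an AAV9 vector with the M7.8L shRNA (replicates 5 to 8), 3 mutant hearts given an AAV9 control virus without that shRNA (replicates 1 to 3), 3 mutant hearts without virus (replicates 9 to 11, called untreated), and 3 hearts of wild-type transgenic mice given the control virus (replicates 2 to 4). Mutant means the mutated and wild-type the normal human allele, both taken from the sample titles, since the genotype field reads RLC-47K L6 for every sample. No promoter for the transgene is named in the sources used here. Mice received virus through the jugular vein 3 days after birth, and their hearts were collected at 4 months. Values in each group come in replicate order and are FPKM, fragments scaled by transcript length and library, after division by a factor that aligned the library medians over the 13875 genes above 0 in every library. Nothing in the labels says how hearts were taken apart or pooled, so p-values measure the spread between these libraries.

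Libraries differed in ways that touch the results. The row named for the human transgene, hMyl2, was above 0 in shRNA replicates 5, 6 and 7 (229 to 420 FPKM as deposited) and was listed at 0 in shRNA replicate 8 and the other 9 libraries. All mice are described as carrying the transgene, so the row does not settle its level in any group, and the group is called the hearts labelled shRNA throughout. Six3, a homeobox gene, was at 34.5 FPKM in shRNA replicate 8 and at most 0.0663 FPKM in replicates 5 to 7, against 19.8 to 31.9 FPKM in the other mutant hearts and at most 0.0854 FPKM in wild-type hearts. Replicate 8 lay outside the range of replicates 5 to 7 for 32 of the 49 tested proteasome rows (65.3%, against 74.6% of all tested genes), and results on the hearts labelled shRNA are given with and without it. Y-linked expression above 5 FPKM marked 3 of the 4 hearts labelled shRNA (replicates 5 to 7) as male, and 0 of 3 control-virus mutant, 2 of 3 untreated mutant and 2 of 3 wild-type hearts. Library scale before alignment was spread from -0.54 (untreated mutant replicate 10) to 0.82 (shRNA replicate 8) on the log2 scale. Cardiomyocyte markers were high in all libraries, as the label heart calls for, although Myh6 among them was listed at 0 in some libraries, so a value of 0 can be a failed estimate.

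Proteasome RNA was abundant, and its median spread between hearts was below that of all tested genes. The median level of the 49 tested rows was 141 FPKM, against 16.1 FPKM for the 12947 tested genes, and the median SD over the 13 libraries was 0.169 for these rows and 0.276 for all tested genes on the log2(FPKM + 1) scale. Core and ATPase subunits had the highest levels, with Psmb7, a catalytic subunit, at 317 to 557 FPKM, Psmb4, a structural beta subunit, at 304 to 449 FPKM and the alpha subunit Psma6 at 276 to 447 FPKM. Psma8, the alpha subunit known from testis, lay at only 2.17 to 4.38 FPKM. The most even class was the ATPases (median SD 0.131) and the least even, among those of 3 or more rows, the immunoproteasome subunits (0.437). The assembly chaperones, at a median of 29.2 FPKM, had a median SD of 0.286. No genes of like level were compared, so the lower spread is not shown to be a trait of proteasome rows.

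The summed level of each class is given for all groups. The alpha subunits totalled 1341 ± 136 FPKM in the hearts labelled shRNA (SD, n = 4), 1273 ± 50.1 in control-virus mutants, 1245 ± 61.8 in untreated mutants and 1172 ± 50.5 in wild-type hearts (n = 3 each). The ATPases totalled 1114 ± 88, 1117 ± 31.1, 1136 ± 48.2 and 1083 ± 38 FPKM in the same groups. The beta subunits totalled 1876 ± 287, 1846 ± 19.8, 1640 ± 22.3 and 1672 ± 41.6 FPKM. For alpha and for beta subunits every control-virus mutant lay above every wild-type heart, while the ATPase sums overlapped between these groups. The nearest alpha sums of the 2 groups were 1233 and 1229 FPKM. Non-ATPases totalled 1564 ± 62.7 FPKM in the hearts labelled shRNA, 1713 ± 60.2 in control-virus mutants, 1814 ± 71.5 in untreated mutants and 1547 ± 57.8 in wild-type hearts. Every mutant heart without shRNA lay above every wild-type heart in this sum. Activators and the inhibitor together ran the other way, at 563 ± 169 FPKM in the hearts labelled shRNA (328 in replicate 8), 313 ± 13.5 in control-virus mutants, 314 ± 34.7 in untreated mutants and 471 ± 9.6 in wild-type hearts. These sums are descriptions without a test, in which abundant members weigh most, such as Psme1 and Psme4 among the activators. Single members that differed widely also weigh. Psmd8 averaged 258.6 FPKM in control-virus mutants and 142.3 FPKM in wild-type hearts, and Psmb5 250 and 116.3 FPKM. A higher sum therefore does not show that a class rose as a whole.

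**Figure D1:**
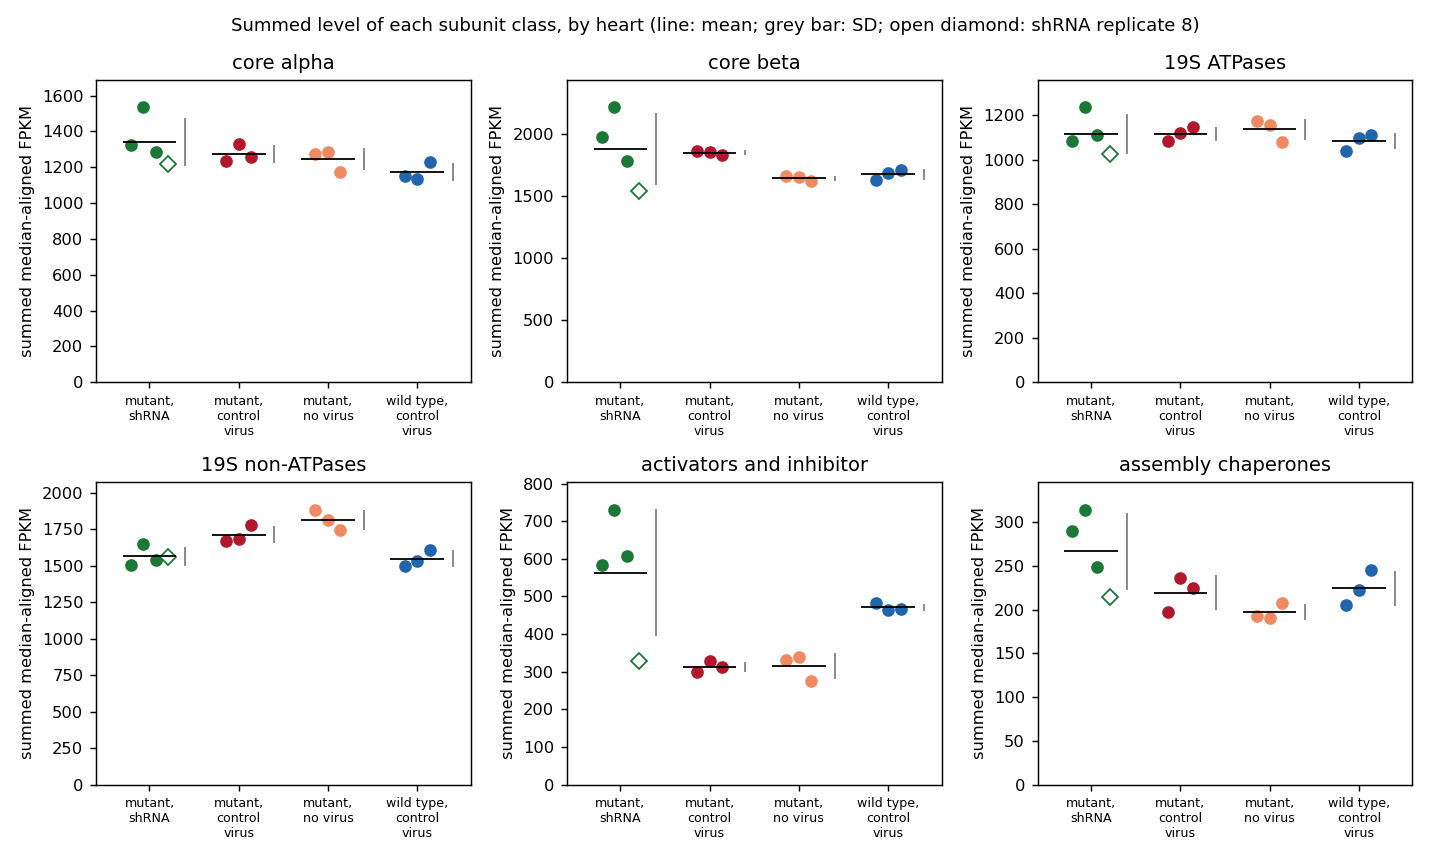
Summed median-aligned FPKM of 6 proteasome classes (vertical axes) in each of 13 hearts, by group, with the group mean as a line, the SD as a grey bar and shRNA replicate 8 as an open diamond. The summed ATPases lie between 1026 and 1235 FPKM in all hearts, while the activators and inhibitor sit at 275 to 339 FPKM in mutant hearts without shRNA, below the wild-type hearts.

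Whether the mutation moved these genes was asked first with control virus in both genotypes. In control-virus mutant against wild-type hearts, 6 of 49 tested rows passed (12.2%), of which 5 rose and 1 fell, where 23.8% of all tested genes passed (12.3% higher, 11.5% lower). The share of proteasome rows called was thus below that of all genes. Groups did not overlap for 21 of 49 rows (42.9%), against 54.8% of all tested genes. The 5 that rose were Psmd8, Psmd5, Psmd13, Psmb5 and Psma5, and Psme4 fell. The median difference over the 49 rows was 0.08 on the log2 scale, against -0.02 over all tested genes. By class, 1 of 8 alpha, 1 of 7 beta, 2 of 11 non-ATPase and 1 of 7 chaperone rows rose, 1 of 5 activators and inhibitors fell, and 0 of 6 ATPases and 0 of 3 immunoproteasome rows passed. Tests were two-sided limma tests on log2(FPKM + 1) over all 13 libraries, with Benjamini-Hochberg adjustment over 12947 genes and a threshold of 0.05. Sex and genotype were partly confounded within this pair of groups, because the control-virus mutants were all female and 1 of 3 wild-type hearts was. With sex as a covariate 1 row passed, Psmd8, and 2.68% of all genes. With shRNA replicate 8 left out of that fit, 8 rows and 27.7% of all genes passed. On the values as deposited 0 rows passed with limma (4 unadjusted) and 9.50% of all genes, and without shRNA replicate 8, which enters through the shared spread, 7 rows and 39.6% of all genes.

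Untreated mutant hearts, in which 2 of 3 mice were male as in the wild type, gave a second comparison with the same wild-type libraries. Here 7 of 49 rows passed (14.3%), against 25.4% of all tested genes, and groups did not overlap for 23 rows (46.9%, against 52.3%). Psmd8, Psmd5, Psma5, Psmd13 and Psmd11 rose (11.5% of all genes did) and Psme1 and Psmg4 fell (13.9% did). The 2 groups also differ in virus, so genotype and virus cannot be told apart in this comparison. As deposited 2 rows passed and 20.7% of all genes, and without shRNA replicate 8, 10 rows and 40.1% of all genes. Between control-virus and untreated mutants 0 of 49 rows and 0% of all genes passed with limma. There 1 row, Psme4, had an unadjusted limma p under 0.05 (0.0196), as did 9.85% of all tested genes.

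The hearts labelled shRNA were set against both groups of mutants without it. Against control-virus mutants, 6 of 49 rows passed: Psme1 and Psmd9 rose and Psmd8, Psmc4, Psmd5 and Psmb5 fell, where 24.5% of all tested genes passed (12.7% higher, 11.8% lower), and groups did not overlap for 12 rows (24.5%, against 21.1%). With sex as a covariate 0 rows passed in the limma fit (7 had an unadjusted p under 0.05), against 0.263% of all genes. With sex as a covariate and replicate 8 left out, 9 rows passed (18.4%), against 30.0% of all genes. Only replicate 8 of the hearts labelled shRNA is of the same sex as the control-virus mutants. Without it the sex term rests on the untreated mutants and wild-type hearts. Against untreated mutants, 15 of 49 rows passed (30.6%), 8 higher and 7 lower, where 29.4% of all tested genes passed (17.0% higher, 12.3% lower), and groups did not overlap for 14 rows (28.6%, against 24.2%). On the values as deposited the counts were 12 rows against control-virus mutants (35.0% of all genes) and 30 against untreated mutants (54.8%). All of these rows were higher, as were 33.4% and 53.6% of all genes in the same order. Without shRNA replicate 8 the counts were 19 (49.0% of all genes) and 22 (49.5%). Against wild-type hearts 0 rows passed, where 0.0850% of all genes did, and 6 had an unadjusted p under 0.05, as did 11.5% of all genes. Without replicate 8, Psme1, Psmg2 and Psmb2 rose against wild type (6.22% of all genes passed). All these comparisons share libraries, the control-virus mutants or the wild-type hearts standing in 3 of 6 each.

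**Figure D2:**
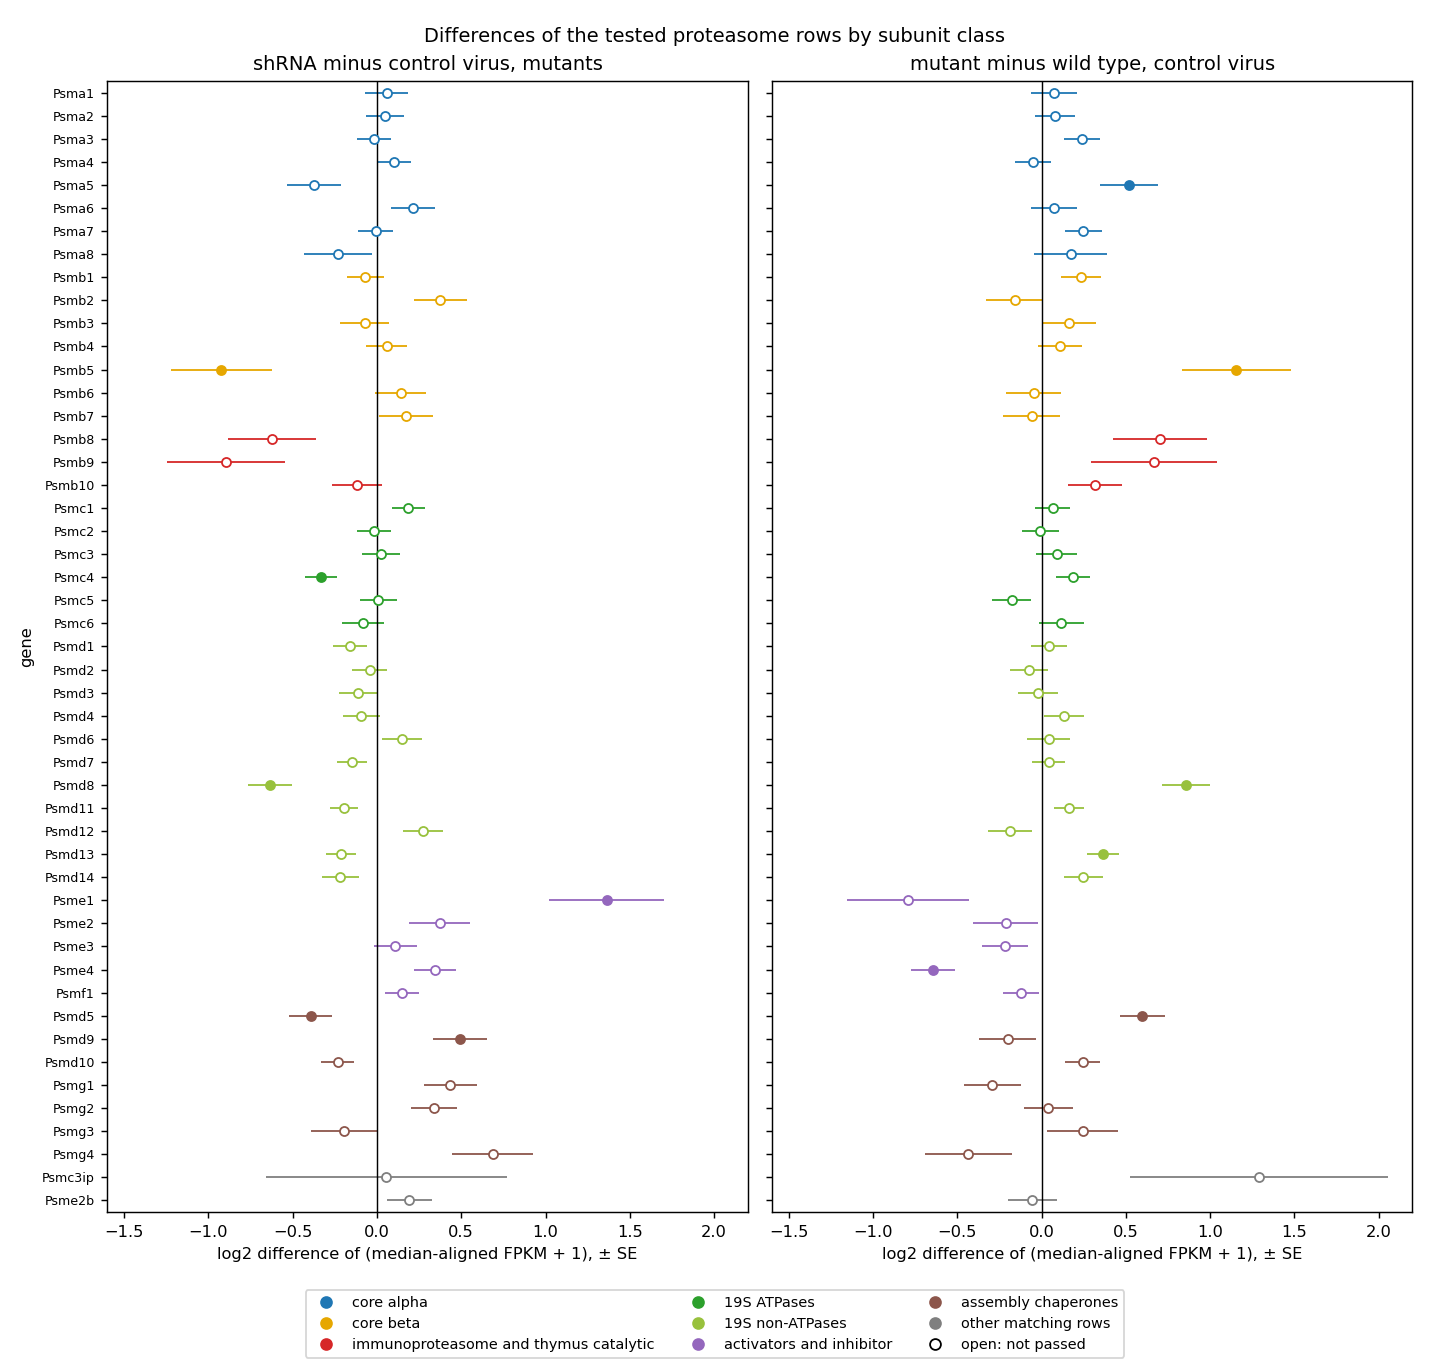
Log2 difference of median-aligned FPKM + 1 (horizontal axis, with SE) for the 49 tested rows, coloured by class, in hearts labelled shRNA minus control-virus mutants (left) and control-virus mutants minus wild-type hearts (right); filled points passed at an adjusted p of 0.05. Psme1 lies farthest right on the left panel at 1.36. Psmb5, Psmd8 and Psmd5 are filled left of 0 there and right of 0 on the other panel. Both panels share the control-virus mutants, which favours opposite signs but does not force them.

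The widest variation among true subunits and regulators belonged to Psme1, the alpha subunit of the ring-shaped activator that docks on the core particle in place of the regulatory particle. Psme1 was at 302, 480, 343 and 117 FPKM in the hearts labelled shRNA, 95.1, 115 and 112 in control-virus mutants, 83.3, 84.5 and 76.7 in untreated mutants, and 202, 175 and 181 in wild-type hearts. All 6 mutant hearts without shRNA, and shRNA replicate 8, lay below the lowest wild-type heart, while shRNA replicates 5 to 7 lay above the highest. Psme1 rose in the hearts labelled shRNA against control-virus mutants by 1.36 ± 0.34 (log2, SE; 2.57-fold, limma adjusted p = 0.0212; 1.77 and 1.24e-06 without replicate 8). That call was lost without any 1 of shRNA replicates 5, 6 and 7 or of the control-virus mutants (adjusted p 0.0553 to 0.0694), and with sex as a covariate (0.218). Against untreated mutants it rose by 1.75 ± 0.34 (3.36-fold, limma adjusted p = 0.00608), and this passed with each of the 13 libraries left out in turn. In untreated mutants it fell against wild type by 1.18 ± 0.36 (2.27-fold lower, limma adjusted p = 0.0347). That fall was lost without any 1 of the 6 hearts compared (0.0744 to 0.1) and stood at 5.3e-05 without shRNA replicate 8. In control-virus mutants against wild type the difference of -0.79 did not pass (limma adjusted p = 0.122, and 0.000987 without shRNA replicate 8, which enters that comparison through the shared spread).

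Summed cardiomyocyte markers stood in a like order of hearts. The sum of 6 markers was 62450 to 65720 FPKM in shRNA replicates 5 to 7 and 32190 FPKM in replicate 8. It was 33470 to 38720 FPKM in control-virus mutants, 30410 to 36770 FPKM in untreated mutants and 41430 to 55540 FPKM in wild-type hearts. The lowest sum in each of these groups came from a heart with Myh6 listed at 0. Taken singly, Tnnt2, Tnni3 and Actn2 followed the order. Ryr2 and Actc1 did not, with Actc1 at 15620 to 19090 FPKM in shRNA replicates 5 to 7 and 17240 to 19480 FPKM in mutants without shRNA. The part of cardiomyocytes in the levels of Psme1 and the other proteasome rows was not tested.

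Psme1 shares its stretch of genome with Emc9, a gene for a subunit of the membrane protein insertion complex, in the RefSeq annotation. Emc9 was at 97.5, 112, 93.7 and 50.3 FPKM in the hearts labelled shRNA, 46.6, 48.6 and 59.1 in control-virus mutants, 47.4, 31.6 and 44.7 in untreated mutants, and 90.4, 76.2 and 79.4 in wild-type hearts. Its order of groups was like that of Psme1, with a rise in the hearts labelled shRNA of 0.72 against control-virus mutants (limma adjusted p = 0.0431) and 1.04 against untreated mutants (0.0102). The sources used here do not state whether reads were counted by strand, and reads of the overlap cannot be told apart without it.

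The promoters of Psme1 and of Psmd8, an activator and a lid subunit whose calls in more than one comparison lead the results, are printed to show the sequence at these genes. They run from 250 bases before to 50 after the annotated start (RefSeq, build GRCm38.p6, given on the gene's strand); capitals mark a match to GAAA, any 2 bases and GAAA again, the core letters of the interferon-stimulated response element, searched on both strands.
Psme1, chr14:55578244-55578543, plus strand: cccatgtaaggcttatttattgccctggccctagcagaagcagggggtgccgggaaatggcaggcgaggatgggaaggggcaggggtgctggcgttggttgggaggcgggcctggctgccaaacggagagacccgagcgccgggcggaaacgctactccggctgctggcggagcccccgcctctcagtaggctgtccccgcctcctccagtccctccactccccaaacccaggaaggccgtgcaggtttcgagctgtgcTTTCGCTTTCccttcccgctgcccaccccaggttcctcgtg
Psmd8, chr7:29180624-29180923, minus strand: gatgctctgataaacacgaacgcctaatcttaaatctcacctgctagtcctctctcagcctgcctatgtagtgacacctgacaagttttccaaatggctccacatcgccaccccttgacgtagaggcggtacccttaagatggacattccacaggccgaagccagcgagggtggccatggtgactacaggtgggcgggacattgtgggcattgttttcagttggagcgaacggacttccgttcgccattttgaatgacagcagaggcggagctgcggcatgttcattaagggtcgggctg
The match in Psme1 begins 9 bases after the annotated start and stands on the opposite strand. Psmd8 held no match to these letters in the window.

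The same letters stood in 5 of 45 promoters of the proteasome rows (11.1%) and in 3.44% of all 32851 promoters of the same length; 42 of the 50 rows had a promoter. Besides Psme1 the matches were in Psmg4, Psmd9, Psmd4 and Psmb3, shown here in windows of 60 bases on the gene's strand, with the match in capitals.
Psmg4, chr13:34162954-34163013, plus strand: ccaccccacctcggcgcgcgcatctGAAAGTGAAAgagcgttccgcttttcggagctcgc
Psmd9, chr5:123228006-123228065, plus strand: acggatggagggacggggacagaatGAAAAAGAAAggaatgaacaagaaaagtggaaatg
Psmd4, chr3:95042660-95042719, minus strand: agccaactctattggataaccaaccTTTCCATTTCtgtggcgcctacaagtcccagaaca
Psmb3, chr11:97703246-97703305, plus strand: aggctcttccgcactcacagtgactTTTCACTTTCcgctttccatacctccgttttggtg
The antioxidant response core TGACNNNGC was in 13.3% of these promoters and 12.4% of all, and CCAAT in 33.3% and 37.4%. Psme1, Psmg4 and Psmd9 rose in the hearts labelled shRNA against untreated mutants and are described where their values stand. In that comparison 8 of 49 proteasome rows and 17.0% of all tested genes were higher. Against control-virus mutants Psmg4 did not pass, and Psmd4 and Psmb3 passed in no comparison. A link between these letters and the levels was not tested. No match was found in the windows of Psmb8, Psmb9 or Psmb10.

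The other activators moved less. Psme2, the beta partner of Psme1 in the same ring, was at 41.1, 42.5, 38.8 and 25.3 FPKM in the hearts labelled shRNA, 24.4, 34.6 and 25.3 in control-virus mutants, 25.0, 28.3 and 20.9 in untreated mutants, and 32.01, 34.4 and 30.7 in wild-type hearts. It passed against untreated mutants (0.54 ± 0.18 on the log2 scale, limma adjusted p = 0.0406, and 0.000913 without replicate 8), with overlapping groups. That call was lost without any 1 of shRNA replicates 5, 6 and 7, control-virus replicate 3, the untreated mutants or the wild-type hearts (adjusted p 0.0513 to 0.141). The copy Psme2b was at 131, 153, 125 and 103 FPKM in the hearts labelled shRNA, 97.2, 130 and 108 in control-virus mutants, 95.4, 99.9 and 92.4 in untreated mutants, and 121, 107 and 118 in wild-type hearts, and passed in the same comparison (0.40 ± 0.13, limma adjusted p = 0.0416), a call lost without the same libraries (0.0536 to 0.108). Relative to Psme3, the nuclear activator of the same family, Psme1 was 5.0-, 8.16-, 5.39- and 2.66-fold as high in the hearts labelled shRNA, 1.94 to 2.13 in control-virus mutants, 1.48 to 1.77 in untreated mutants and 2.70 to 3.50 in wild-type hearts. This ratio within a library does not depend on the alignment, and the 6 mutant hearts without shRNA were below all wild-type hearts in it. Psme1 over Psme4 was 0.908 to 3.53 in the hearts labelled shRNA, 0.799 to 1.02 in control-virus mutants, 0.505 to 0.633 in untreated mutants and 0.982 to 1.14 in wild-type hearts, so that control-virus mutants and wild-type hearts overlapped.

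Psme4, the large monomeric activator known from histone degradation, was the only activator whose fall in control-virus mutants against wild type passed over all libraries. Psme1 and Psme3 were also lower there in every heart, without passing. Its level was 168, 136, 151 and 129 FPKM in the hearts labelled shRNA, 119, 113 and 111 in control-virus mutants, 154, 167 and 121 in untreated mutants, and 177, 176 and 185 in wild-type hearts. The difference between control-virus mutant and wild-type hearts was -0.64 ± 0.13 (1.56-fold lower, limma adjusted p = 0.0103), and it passed with each of the 13 libraries left out in turn, but not with sex as a covariate (0.0617). In untreated mutants, whose range reaches into that of the hearts labelled shRNA, the difference to wild type of -0.29 did not pass (limma adjusted p = 0.115). Psme3 was at 60.3, 58.9, 63.5 and 44.1 FPKM in the hearts labelled shRNA, 49.0, 54.1 and 53.0 in control-virus mutants, 56.2, 47.8 and 44.2 in untreated mutants and 57.7, 64.8 and 59.3 in wild-type hearts. Psmf1, which codes for a protein inhibitor of the core particle, was at 12.95, 13.13, 12.64 and 12.16 FPKM in the hearts labelled shRNA, 13.1, 10.3 and 10.9 in control-virus mutants, 11.3, 10.7 and 11.6 in untreated mutants and 13.22, 12.98 and 11.34 in wild-type hearts. Neither Psme3 nor Psmf1 passed in any of the 6 comparisons.

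Among the non-ATPases, Psmd8, a lid subunit, differed most. Psmd8 was at 146, 173, 140 and 214 FPKM in the hearts labelled shRNA, 260, 251 and 265 in control-virus mutants, 285, 305 and 278 in untreated mutants, and 138, 143 and 146 in wild-type hearts. All mutant hearts without shRNA lay above all hearts labelled shRNA and all wild-type hearts, and shRNA replicate 8 stood between the 2 levels. It rose in control-virus mutants against wild type by 0.86 ± 0.14 (1.81-fold, limma adjusted p = 0.00693) and in untreated mutants by 1.02 ± 0.14 (2.03-fold, 0.00264), both past the threshold with each library left out in turn. In the hearts labelled shRNA it fell against untreated mutants by 0.80 ± 0.13 (1.74-fold lower, limma adjusted p = 0.00323), likewise with any library left out. Against control-virus mutants it fell by 0.64 ± 0.13 (1.55-fold lower, limma adjusted p = 0.0141), a call that was lost by a little without control-virus replicate 3 (0.0505), and with sex as a covariate (0.142). Psmd8 over Psmd7, another lid subunit, was 0.785, 0.868, 0.761 and 1.06 in the hearts labelled shRNA, 1.17 to 1.24 in control-virus mutants, 1.16 to 1.29 in untreated mutants and 0.648 to 0.717 in wild-type hearts. The ratio separates the same hearts without any alignment, whereas on the values as deposited no difference of Psmd8 passed (adjusted p 0.136 to 0.795).

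**Figure D3:**
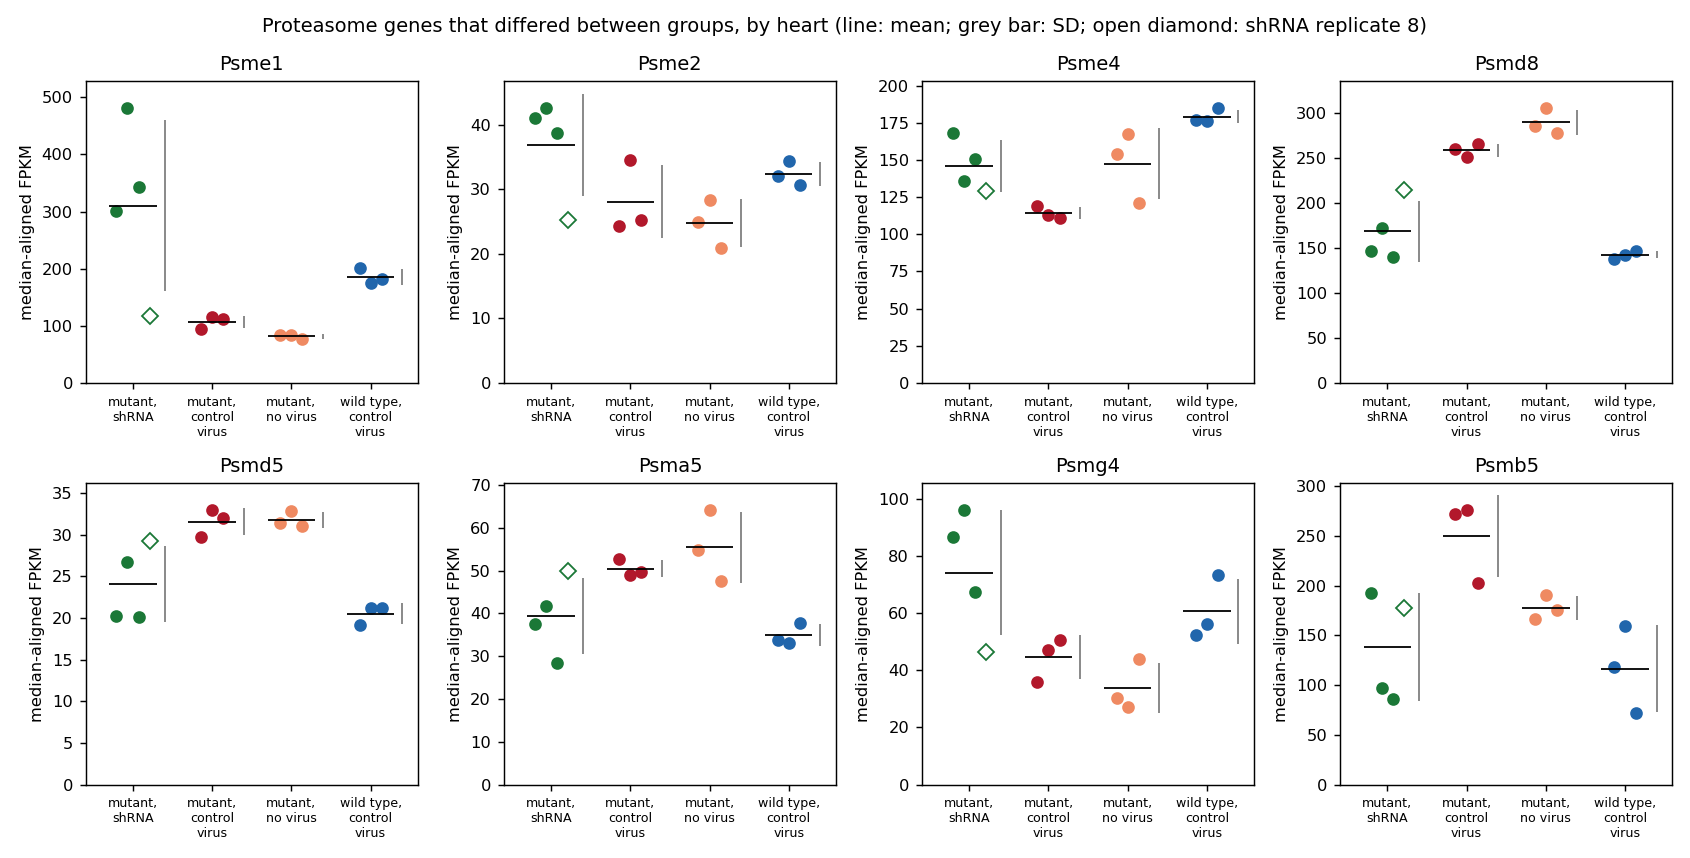
Median-aligned FPKM (vertical axes) of 8 proteasome genes in each of 13 hearts by group, with the mean as a line, the SD as a grey bar and shRNA replicate 8 as an open diamond. Psme1 sits at 76.7 to 115 FPKM and Psmd8 at 251 to 305 FPKM in the 6 mutant hearts without shRNA, apart from the wild-type hearts in both cases, and replicate 8 lies toward those mutants for Psme1, Psme2, Psmd5, Psma5 and Psmg4.

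Other lid and base subunits changed by smaller amounts. Psmd13, a lid subunit, was at 99.4, 121, 106 and 106 FPKM in the hearts labelled shRNA, 124, 124 and 127 in control-virus mutants, 123, 127 and 121 in untreated mutants, and 96.8, 91.0 and 102 in wild-type hearts. It rose 1.29-fold in control-virus mutants (0.37 ± 0.09, limma adjusted p = 0.0212) and 1.28-fold in untreated mutants (0.0227) against wild type. The call in control-virus mutants was lost without any 1 of them or wild-type replicate 2 or 3 (0.0558 to 0.0784). That in untreated mutants was lost without untreated replicate 9 or 10 or wild-type replicate 2 or 3 (0.0553 to 0.0785), and its difference was -0.0041 on the values as deposited. Psmd11, which helps join lid and base, was at 70.8, 72.4, 67.4 and 70.7 FPKM in the hearts labelled shRNA, 79.2, 82.7 and 80.0 in control-virus mutants, 95.1, 81.4 and 83.6 in untreated mutants, and 72.8, 74.8 and 68.6 in wild-type hearts. It fell in the hearts labelled shRNA against untreated mutants (-0.29 ± 0.08, limma adjusted p = 0.0224; 0.41 as deposited), a call lost without shRNA replicate 5 or 7 or untreated replicate 9 (0.0527 to 0.0986). It rose in untreated mutants against wild type (0.26 ± 0.09, limma adjusted p = 0.0487; -0.09 as deposited), which passed only without shRNA replicate 6 or 8 among the 13 libraries left out in turn (up to 0.169 otherwise).

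Psmd1, the large scaffold of the base, was at 127, 130, 117 and 141 FPKM in the hearts labelled shRNA, 142, 137 and 154 in control-virus mutants, 175, 170 and 144 in untreated mutants, and 135, 138 and 146 in wild-type hearts. Psmd7 was at 186, 199, 184 and 203 FPKM in the hearts labelled shRNA, 209, 214 and 219 in control-virus mutants, 247, 236 and 233 in untreated mutants, and 193, 207 and 225 in wild-type hearts. Against untreated mutants both fell in the hearts labelled shRNA, Psmd1 by 0.34 ± 0.10 (limma adjusted p = 0.0274) and Psmd7 by 0.30 ± 0.09 (0.0265), while as deposited both differences were positive, at 0.37 and 0.40. Leaving out 1 of shRNA replicates 5 to 7 or untreated replicates 9 and 10 took the adjusted p of Psmd1 above 0.05 (0.055 to 0.104), and leaving out 1 of shRNA replicates 5 and 7 or the untreated mutants took that of Psmd7 above it (0.0512 to 0.0897). Psmc4, the 1 ATPase of 6 that passed over all 13 median-aligned libraries, was at 101, 109, 94.0 and 100.1 FPKM in the hearts labelled shRNA, 118, 132 and 132 in control-virus mutants, 134, 112 and 129 in untreated mutants, and 109, 116 and 111 in wild-type hearts. It fell in the hearts labelled shRNA against control-virus mutants (-0.33 ± 0.09, limma adjusted p = 0.0284; 0.15 as deposited) and untreated mutants (-0.30 ± 0.09, 0.0327; 0.40 as deposited). The call against control-virus mutants was lost without any 1 of shRNA replicates 5 to 7 or the control-virus mutants (0.0501 to 0.0901), and the one against untreated mutants without shRNA replicate 5 or 7 or untreated replicate 9 or 11 (0.0713 to 0.121).

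In the core particle, Psma5 and Psmb5 carried most of the calls. Psma5, an alpha-ring subunit, was at 37.6, 41.7, 28.5 and 49.9 FPKM in the hearts labelled shRNA, 52.8, 48.9 and 49.8 in control-virus mutants, 54.8, 64.1 and 47.6 in untreated mutants, and 33.9, 33.2 and 37.8 in wild-type hearts. All mutant hearts without shRNA, and replicate 8, lay above the wild-type hearts. It rose against wild type by 0.52 ± 0.17 in control-virus mutants (limma adjusted p = 0.045) and by 0.64 ± 0.17 in untreated mutants (0.022), and fell in the hearts labelled shRNA against untreated mutants by 0.50 ± 0.16 (0.0349; a difference of 0.19 as deposited). The rise in control-virus mutants was lost without any 1 of shRNA replicates 5 and 6, the control-virus mutants, untreated replicate 9 or the wild-type hearts (0.0508 to 0.122). The rise in untreated mutants was lost without untreated replicate 9 or 10 or wild-type replicate 2 or 3 (0.0528 to 0.082), and the fall without any 1 of shRNA replicates 5 to 7 or untreated replicates 9 and 10 (0.0577 to 0.134).

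Psmb5, the catalytic subunit with chymotrypsin-like activity, varied 3.83-fold between its highest and lowest heart, against 3.13-fold for Psmb8 and 5.34-fold for Psmb9. Its level was 192, 97.0, 86.5 and 177 FPKM in the hearts labelled shRNA, 272, 276 and 202 in control-virus mutants, 167, 191 and 175 in untreated mutants, and 118, 159 and 71.9 in wild-type hearts. Control-virus mutants lay above all hearts labelled shRNA and of the wild type, and the untreated mutants lay below them and above all wild-type hearts. It rose in control-virus mutants against wild type by 1.16 ± 0.32 (2.23-fold, limma adjusted p = 0.0267). It fell in the hearts labelled shRNA against control-virus mutants by 0.92 ± 0.30 (1.90-fold lower, 0.0439). The rise was lost without control-virus replicate 1 or 2 or wild-type replicate 2 or 4 (0.0724 to 0.0891). The fall was lost without any 1 of 10 libraries, namely shRNA replicates 5 to 7, the control-virus mutants, the untreated mutants and wild-type replicate 2 (0.0564 to 0.127). Psmb2, a non-catalytic beta subunit, was at 236, 267, 226 and 154 FPKM in the hearts labelled shRNA, 168, 161 and 172 in control-virus mutants, 174, 141 and 158 in untreated mutants, and 182, 198 and 181 in wild-type hearts. It passed in the hearts labelled shRNA against untreated mutants (0.46 ± 0.16, limma adjusted p = 0.0454), where replicate 8 lay among the untreated mutants. Only with replicate 8 left out did it pass among the 13 omissions (0.000165; otherwise 0.0585 to 0.15). Without replicate 8 it was also higher than in wild-type hearts (0.38, 0.0374).

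The inducible catalytic subunits passed in no comparison over all libraries. Psmb8, which replaces Psmb5, was at 25.9, 46.0, 23.3 and 41.3 FPKM in the hearts labelled shRNA, 41.9, 72.9 and 43.3 in control-virus mutants, 40.0, 29.9 and 35.9 in untreated mutants, and 27.2, 26.7 and 40.8 in wild-type hearts. Psmb9, which replaces Psmb6, was at 13.8, 29.6, 11.3 and 27.4 FPKM in the hearts labelled shRNA, 30.3, 60.1 and 25.6 in control-virus mutants, 25.0, 20.4 and 28.0 in untreated mutants, and 21.7, 17.1 and 29.9 in wild-type hearts. Psmb10, which replaces Psmb7, was at 76.3, 92.3, 85.3 and 109 FPKM in the hearts labelled shRNA, 82.1, 117 and 97.5 in control-virus mutants, 88.4, 93.0 and 89.3 in untreated mutants, and 70.3, 72.6 and 94.5 in wild-type hearts. Control-virus replicate 2 was the highest heart for all 3 genes. In control-virus mutants against wild type the differences were 0.70, 0.67 and 0.31 for Psmb8, Psmb9 and Psmb10 (limma adjusted p 0.0825, 0.201 and 0.16). In the hearts labelled shRNA against control-virus mutants they were -0.62, -0.90 and -0.12 (limma adjusted p 0.0957, 0.0771 and 0.572), and without replicate 8 Psmb8 fell by 0.73 (0.0372) and Psmb9 fell by 1.07 (0.0233).

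Set against the constitutive subunit each one replaces, the inducible subunits were the minor form in every heart. Psmb6 was at 272, 329, 270 and 199 FPKM in the hearts labelled shRNA, 240, 232 and 244 in control-virus mutants, 213, 180 and 229 in untreated mutants, and 244, 228 and 269 in wild-type hearts. Psmb7 was at 464, 557, 438 and 317 FPKM in the hearts labelled shRNA, 368, 373 and 419 in control-virus mutants, 359, 384 and 337 in untreated mutants, and 390, 397 and 421 in wild-type hearts. Neither gene passed in any comparison over all libraries. The ratio of Psmb9 to Psmb6 was 0.0508, 0.09, 0.0417 and 0.138 in the hearts labelled shRNA, 0.105 to 0.259 in control-virus mutants, 0.113 to 0.122 in untreated mutants, and 0.075 to 0.111 in wild-type hearts. That of Psmb10 to Psmb7 was 0.165, 0.166, 0.195 and 0.343 in the hearts labelled shRNA, 0.223 to 0.313 in control-virus mutants, 0.242 to 0.265 in untreated mutants, and 0.18 to 0.224 in wild-type hearts. Control-virus replicate 2 and shRNA replicate 8 were the 2 highest hearts in both ratios. Psmb8 over Psmb5 followed no such order, at 0.135 to 0.474 in the hearts labelled shRNA, 0.154 to 0.264 in control-virus mutants, 0.156 to 0.24 in untreated mutants and 0.167 to 0.568 in wild-type hearts.

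Leukocyte markers differed between the same hearts. Summed over 11 markers they were at 277, 372, 270 and 1117 FPKM in the hearts labelled shRNA, 904, 1224 and 1009 in control-virus mutants, 752, 884 and 1064 in untreated mutants, and 317, 312 and 295 in wild-type hearts. Of 9 tested leukocyte markers 8 rose in control-virus mutants against wild type, where 12.3% of all tested genes were higher and 11.5% lower. The defining marker Ptprc (11.4 and 3.14 FPKM on average in control-virus mutant and wild-type hearts) was among them. In the hearts labelled shRNA 7 fell against control-virus mutants, where 11.8% of all tested genes were lower. Cd79a and Cd3e of B and T cells stayed too low to be tested. Lyz2, the most abundant marker, averaged 813 FPKM in control-virus mutants and 227 FPKM in wild-type hearts. In bulk tissue more cells of a type and more RNA per cell cannot be told apart, and the part of leukocytes in the levels of Psmb8, Psmb9 and Psmb10 was not tested. Of fibroblast markers 3 of 5 were higher in control-virus mutants than in wild-type hearts, and 3 of 5 endothelial markers were lower there.

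**Figure D4:**
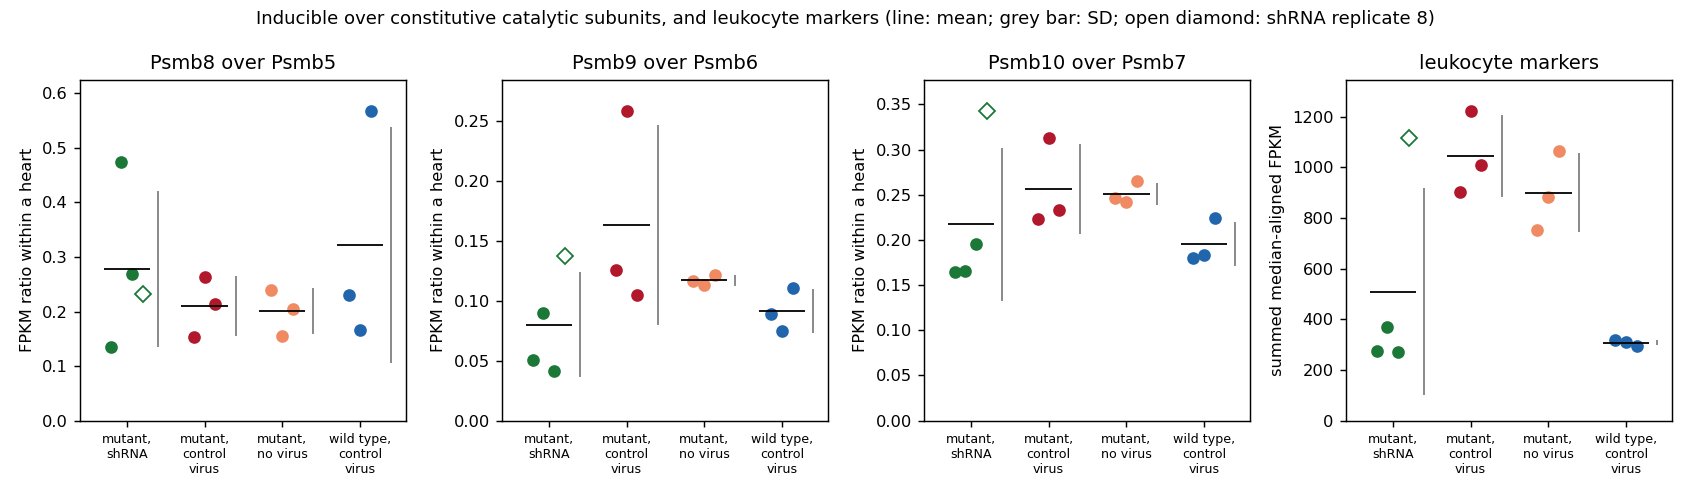
Ratios of inducible to constitutive catalytic subunits within each heart (3 panels) and the summed FPKM of 11 leukocyte markers (right panel) by group, with the mean as a line, the SD as a grey bar and shRNA replicate 8 as an open diamond. Leukocyte markers stand at 752 to 1224 FPKM in mutant hearts without shRNA and 1117 FPKM in shRNA replicate 8, and at 270 to 372 FPKM in shRNA replicates 5 to 7 and the wild-type hearts. Psmb9 over Psmb6 and Psmb10 over Psmb7 lie higher in all untreated mutants than in all wild-type hearts, and Psmb8 over Psmb5 overlaps between all groups.

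Assembly chaperones did not move as a block. Psmg4, a partner in building the alpha ring, was at 86.5, 95.9, 67.3 and 46.5 FPKM in the hearts labelled shRNA, 35.9, 47.1 and 50.5 in control-virus mutants, 30.4, 27.2 and 43.8 in untreated mutants, and 52.2, 56.1 and 73.4 in wild-type hearts. Untreated mutants lay below all wild-type hearts and all hearts labelled shRNA. Psmg4 rose in the hearts labelled shRNA against untreated mutants by 1.09 ± 0.24 (2.13-fold, limma adjusted p = 0.00995), with any library left out. It fell in untreated mutants against wild type by 0.84 ± 0.26 (1.79-fold lower, 0.0347), a call lost without untreated replicate 9 or 10 or any wild-type heart (0.0678 to 0.12). Its differences with control-virus mutants did not pass, and the gene rose there as well without replicate 8 (0.89 on the log2 scale).

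Psmg1 and Psmg2 form a heterodimer that starts the alpha ring. Psmg1 was at 47.8, 46.9, 40.8 and 30.2 FPKM in the hearts labelled shRNA, 25.7, 37.1 and 28.0 in control-virus mutants, 29.0, 30.1 and 27.8 in untreated mutants, and 38.83, 33.87 and 37.96 in wild-type hearts. Psmg2 was at 77.4, 76.6, 72.8 and 56.4 FPKM in the hearts labelled shRNA, 48.4, 63.8 and 55.0 in control-virus mutants, 50.6, 53.4 and 50.9 in untreated mutants, and 47.5, 62.8 and 52.3 in wild-type hearts. Both rose in the hearts labelled shRNA against untreated mutants, by 0.48 ± 0.16 (limma adjusted p = 0.0399) and 0.44 ± 0.14 (0.0323), and every heart labelled shRNA lay above every untreated mutant, replicate 8 by the least. The Psmg1 call was lost without any 1 of shRNA replicates 5 to 7, control-virus replicate 3, the untreated mutants or the wild-type hearts (0.0512 to 0.105), and that of Psmg2 without any 1 of shRNA replicates 5 to 7 or the untreated mutants (0.0701 to 0.0889). Psmg3, the partner of Psmg4, passed in no comparison.

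Psmd5, Psmd9 and Psmd10 escort the ATPases into the base and are not parts of the finished particle. Psmd5 was at 20.3, 26.7, 20.1 and 29.2 FPKM in the hearts labelled shRNA, 29.8, 32.9 and 32 in control-virus mutants, 31.4, 32.9 and 31.1 in untreated mutants, and 19.1, 21.3 and 21.2 in wild-type hearts. Every mutant heart without shRNA lay above every heart labelled shRNA and every wild-type heart. It rose against wild type by 0.60 ± 0.14 in control-virus mutants (1.51-fold, limma adjusted p = 0.0143) and by 0.61 ± 0.14 in untreated mutants (1.53-fold, 0.0131). The rise in control-virus mutants was lost without control-virus replicate 2 or wild-type replicate 2 (0.053 and 0.0608) and the one in untreated mutants without wild-type replicate 2 (0.0553). It fell in the hearts labelled shRNA by 0.39 ± 0.13 against control-virus mutants (limma adjusted p = 0.0415; 0.08 as deposited) and by 0.40 ± 0.13 against untreated mutants (0.0324; 0.28 as deposited). Those falls were lost without any library other than replicate 8 (0.0502 to 0.118), and without any 1 of shRNA replicates 5 and 7 or the untreated mutants (0.0661 to 0.093).

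Psmd9 ran the opposite way, at 18.2, 20.8, 13.7 and 12.1 FPKM in the hearts labelled shRNA, 10.4, 10.6 and 12.0 in control-virus mutants, 10.0, 8.56 and 10.8 in untreated mutants, and 12.6, 12.6 and 13.3 in wild-type hearts. Psmd9 rose in the hearts labelled shRNA against control-virus mutants by 0.49 ± 0.16 (1.41-fold, limma adjusted p = 0.0416) and against untreated mutants by 0.65 ± 0.16 (1.57-fold, 0.0137). Replicate 8 lay just above the highest control-virus mutant. The call against control-virus mutants was lost without any 1 of shRNA replicates 5 to 7, the control-virus mutants, untreated replicate 9 or the wild-type hearts (0.0552 to 0.121), and the one against untreated mutants only without untreated replicate 10 (0.0566). Psmd10, also known as gankyrin, passed in no comparison.

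Psmc3ip took 2 levels that cut across the groups. Its row stood at 6.59, 35.4, 6.38 and 24.5 FPKM in the hearts labelled shRNA, 3.29, 25.2 and 26.4 in control-virus mutants, 20.6, 19.1 and 5.58 in untreated mutants, and 4.57, 5.36 and 4.94 in wild-type hearts. It overlaps Mlx in the RefSeq annotation, whose own row was 19.6 to 29.0 FPKM throughout, and it passed in no comparison.

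Genes around the proteasome were read from lists of other proteasome factors, ubiquitin shuttles, ubiquitin and its enzymes, class I processing and interferon response. Their counts are to be read against the shares of all tested genes that passed, 12.3% higher and 11.5% lower in the first comparison. In control-virus mutants against wild type, 1 of 14 other proteasome genes rose and 1 fell: Shfm1, a small lid subunit, was 1.70-fold higher (limma adjusted p = 0.0143), and AI314180, the mouse gene for the adaptor ECM29, was 1.43-fold lower (0.0449). Of 10 shuttle genes 1 rose, Ubxn1 (1.46-fold, limma adjusted p = 0.0197), and of 15 ubiquitin genes 1 fell, the conjugating enzyme Ube2r2 (1.43-fold lower, 0.0376). Of 12 class I processing genes 5 rose, with the MHC heavy chain H2-K1 at 379 FPKM in control-virus mutants and 91.5 FPKM in wild-type hearts (3.96-fold, limma adjusted p = 0.00561), then the chaperones Calr, Pdia3 and Tapbp at 1.44- to 1.52-fold. Of 19 interferon response genes 2 rose, Irf8 (3.17-fold, 0.0147) and Ifit1 (2.37-fold, 0.0307), by limma. The list medians were 0.54 for class I processing and 0.69 for the interferon response, against 0.67 for the 3 tested inducible subunits, -0.22 for the activators and -0.02 for all tested genes. Control-virus replicate 2 stood apart in both lists. Interferon response genes summed to 279, 645 and 236 FPKM in control-virus mutants and 229 to 234 FPKM in wild-type hearts, and class I genes to 2554, 5461 and 3039 FPKM in control-virus mutants and 1768 to 2150 FPKM in wild-type hearts.

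In the hearts labelled shRNA against control-virus mutants, where 12.7% of all tested genes were higher and 11.8% lower, 0 of 14 other proteasome genes and 0 of 15 ubiquitin genes passed with limma. Those with the smallest p were Zfand5 (0.32, adjusted p = 0.053) and AI314180 (0.42, 0.0702), and Ube2d1 (0.54, 0.0565) and Ubb (-0.70, 0.061). Without replicate 8, 26.8% of all tested genes were higher and 22.2% lower. Of the other proteasome genes 3 then rose, and of the ubiquitin genes 6 rose and 1 fell. Over all libraries the shuttle gene Ubxn1 fell (1.40-fold lower, limma adjusted p = 0.0239). Of class I genes 3 of 12 fell, H2-K1, B2m and Nlrc5, and of interferon response genes 4 of 19, Ifit1, Irf9, Stat2 and Cxcl10 (limma adjusted p 0.0204 to 0.0415). Psme1, an interferon-inducible gene by background knowledge, was higher in the hearts labelled shRNA, and a link between its level and these lists was not tested. H2-K1 averaged 140 FPKM in the hearts labelled shRNA and 379 FPKM in control-virus mutants. Against untreated mutants, 0 of 19 interferon response genes passed with limma (Ifi47 at -1.13, adjusted p = 0.0869, and Irf9 at -0.43, 0.0994, had the smallest p). There 4 of 10 shuttle genes fell and 3 of 15 ubiquitin genes rose, where 12.3% of all tested genes fell and 17.0% rose. Among untreated mutants against wild type, where 11.5% of all tested genes rose and 13.9% fell, H2-K1 (3.40-fold, limma adjusted p = 0.00486), Pdia3 and Calr rose and Tap2 fell in the class I list, and 1 of 19 interferon response genes, Irf8, rose. H2-D1, another heavy chain of that list, lay the other way from H2-K1. It was at 281.2, 300.3 and 294.3 FPKM in untreated mutants and 393.5, 376.5 and 542.3 FPKM in wild-type hearts.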

How the data were processed

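PolyA RNA of 13 hearts was sequenced as 100-base pairs. The deposited values are FPKM, made by the authors; per the submitters' processing notes FastQC 0.11.2, STAR 2.40, Cufflinks 2.2.1, Cuffdiff and build mm9 were used, in roles not given in the sources used here. Read counts are not given there either, so depth is unknown and precision rests on replicates. Libraries were aligned on the median log2 FPKM of 13875 genes. Genes of mean 1 FPKM or more (12947 of 23998) were tested with limma 3.58.1 (R 4.3.3; trend, two-sided, 4 groups in 1 fit, pseudocount 1 FPKM) for 6 comparisons, with Benjamini-Hochberg adjustment at 0.05. Differences are on the log2(FPKM + 1) scale and understate those of low genes. The fit was tested on simulated data. Values are given per library for Psmb5 to Psmb10, Psme1 to Psme4, Psmf1 and every row that passed, and from each list for up to 4 genes that passed, or the 2 with the smallest p. Members and lists were chosen with earlier results of these data known. RefSeq names and promoters (GRCm38.p6) matched 50 and 42 rows. The small RNA table holds no proteasome row and was not used.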

Additional observations from a re-analysis of the deposited data

Results flagged for a closer look

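One value of the proteasome rows stood apart from the rest of its group. Psmd10, the ATPase chaperone gankyrin, was at 25.4 FPKM in shRNA replicate 6, with the other hearts labelled shRNA at 21.4 to 22.0 FPKM; the gap was 0.837 of the group's range. It was the only such value among the 49 rows, each checked in the 4 hearts labelled shRNA alone, since groups of 3 are too small to check, and chance alone marks about 1 group in 20.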

How the results depend on the processing

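The number of proteasome rows that passed depended on the alignment, on the spread shared by the groups and on single libraries, and the cause of these shifts was not tested. On values as deposited, the median of all genes was shifted by between -0.33 and 0.66. In hearts labelled shRNA 12 rows then passed against control-virus mutants and 30 against untreated mutants, all of them higher. On the same values 0 rows passed in control-virus mutants against wild type (limma, 4 with an unadjusted p under 0.05) and 2 in untreated mutants against wild type. There, 10 differences changed sign: Psmc4 (0.15) and Psmd5 (0.075) against control-virus mutants, Psma5 (0.19), Psmc4 (0.40), Psmd1 (0.37), Psmd11 (0.41), Psmd5 (0.28) and Psmd7 (0.40) against untreated mutants, and Psmd11 (-0.095) and Psmd13 (-0.0041) in untreated mutants against wild type. With only the 2 groups compared in the fit, 0 (limma, 8 unadjusted), 1, 10 and 11 rows passed in that order, beside 32, 415, 5367 and 4932 of all genes. With sex as a covariate 1 row passed in control-virus mutants against wild type and 0 in hearts labelled shRNA against control-virus mutants (limma, 7 unadjusted), and without a filter on low values 3 passed in hearts labelled shRNA against control-virus mutants (2549 of all genes). With sex as a covariate and replicate 8 left out, 8 rows passed in control-virus mutants against wild type (3587 of all genes). In that fit hearts labelled shRNA gave 9 against control-virus mutants (3888 of all genes) and 2 against wild type (767 of all genes). Leaving out 1 library gave 0 (limma, without control-virus replicate 3, 10 unadjusted) to 19, 4 to 22, 2 to 7 and 1 to 10 in the same order of comparisons, and 0 to 3 for hearts labelled shRNA against wild type; every highest count was without shRNA replicate 8. The counts of all genes ran from 506 to 6341, 1663 to 6409, 512 to 5127, 759 to 5191 and 0 to 805 over the same omissions. Quantile normalization and a pseudocount of 0.1 kept every count within 1.5 times. Control-virus mutant and wild-type hearts share replicate numbers 2 and 3. Their deviations correlated at -0.18 and -0.11, which shows no pairing of hearts by number but cannot exclude it. With the replicate block 5 rows passed.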
